A study of Homo sapiens with 5 samples.

Results

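Very broad RNA polymerase II domains were peaks at least 2000 bp wide in the list of RNA polymerase II peaks called against IgG. There were 276 of them among 50161 peaks, which is 0.550% (exact 95% binomial interval 0.487 to 0.619%). The 6 peak lists of the series held 1150695 peaks in all. The domains were chosen by the width of the RNA polymerase II peak alone, so that width is a description and not a finding.

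The series profiled U2932, an established human lymphoma line of the diffuse large B cell type and kept untreated, with ChIP-seq, in which chromatin is precipitated by an antibody and its DNA sequenced. The 5 libraries, 1 of each kind, came from rabbit polyclonal antibodies 1 and 2 against PRDM11 (both non-commercial), an antibody against RNA polymerase II, rabbit IgG, and input chromatin that was not precipitated. Each of the 3 ChIP libraries was called once against IgG and once against input, and values below refer to the IgG lists unless input is named. The lists give positions on the human build hg19 without scores or read counts, so depth is unknown, and without replicates no test was made. Shares carry exact 95% binomial intervals and densities exact 95% Poisson intervals. They cover counting error only and treat neighbouring peaks as independent.

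RNA polymerase II transcribes protein-coding genes and many noncoding RNAs. It often pauses just after the start site, which gives a narrow ChIP peak there, whereas on heavily transcribed genes the signal can run along the gene body and form one broad peak. PRDM11 belongs to the PR domain family, whose members are mostly regulators of transcription and chromatin. An hg19 gene annotation was not used here, so no domain was assigned to a gene, a start site, an exon or an intron, and domains are named by position.

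The domains covered 864 kb of the 17933 kb under RNA polymerase II peaks, or 4.82% of that length. Their median width was 2572 bp (quartiles 2226 and 3290 bp), 86 were at least 3000 bp, 27 at least 5000 bp and 2 at least 10000 bp wide. The narrowest lay on chromosome 1 at 234742866 to 234744866 (2001 bp) and at 27113123 to 27115124 (2002 bp), and on chromosome 2 at 64854315 to 64856320 (2006 bp). The widest peaks that missed the limit lay on chromosome 20 at 48247100 to 48249095 (1996 bp), chromosome 16 at 12069640 to 12071634 (1995 bp) and chromosome 12 at 25204240 to 25206233 (1994 bp). Widths therefore ran on across the limit without a gap.

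The widest domain, on chromosome 14 at 106317108 to 106330916, spanned 13809 bp and held 9 antibody 2 peaks and no antibody 1 peak. The next, on chromosome 17 at 74265116 to 74275174, spanned 10059 bp and had 9 antibody 2 peaks and no antibody 1 peak. In both, the antibody 2 peaks were spread along the whole domain. The domain on chromosome 17 at 56401840 to 56411661 (9822 bp) differed in layout, with 1 antibody 1 peak and 3 antibody 2 peaks near its left end and none beyond.

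A pair of domains of nearly equal width lay close to each other on chromosome 11. The one at 65266313 to 65275606 (9294 bp) overlapped 2 antibody 1 and 3 antibody 2 peaks. The wider antibody 1 peak, of 716 bp, lay mostly outside it, since both together covered 190 bp of the domain. The one at 65189993 to 65199272 (9280 bp) held 2 antibody 2 peaks only. On chromosome 18 at 60978380 to 60987272 a domain of 8893 bp held 2 peaks of each antibody. It was the only one of the 10 widest in a block, a 1-Mb bin in which the antibody 1 list called against input was far denser than the list called against IgG, and against input it held 9 antibody 1 and 14 antibody 2 peaks.

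The remaining 4 of the 10 widest held few antibody 1 peaks. There were 2 antibody 2 peaks and no antibody 1 peak on chromosome 1 at 203273075 to 203281537 (8463 bp), and 1 and none on chromosome 11 at 118754297 to 118761824 (7528 bp). On chromosome 6, the domain at 27857159 to 27865095 (7937 bp) held 1 antibody 1 and 6 antibody 2 peaks, and that at 27095951 to 27102469 (6519 bp) held 1 and 3. All of the 10 widest held an antibody 2 peak, and 5 held an antibody 1 peak. Of all 276 domains, 75% held an antibody 2 peak and 32.2% an antibody 1 peak, and a wider domain has more room for either. The 2 lists differ greatly in size, with 465837 antibody 2 peaks and 13499 antibody 1 peaks. Of these, 0.103% of the antibody 2 peaks and 1.20% of the antibody 1 peaks lay in domains. A higher share for antibody 2 is therefore no sign that it favours the domains more.

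**Figure D1:**
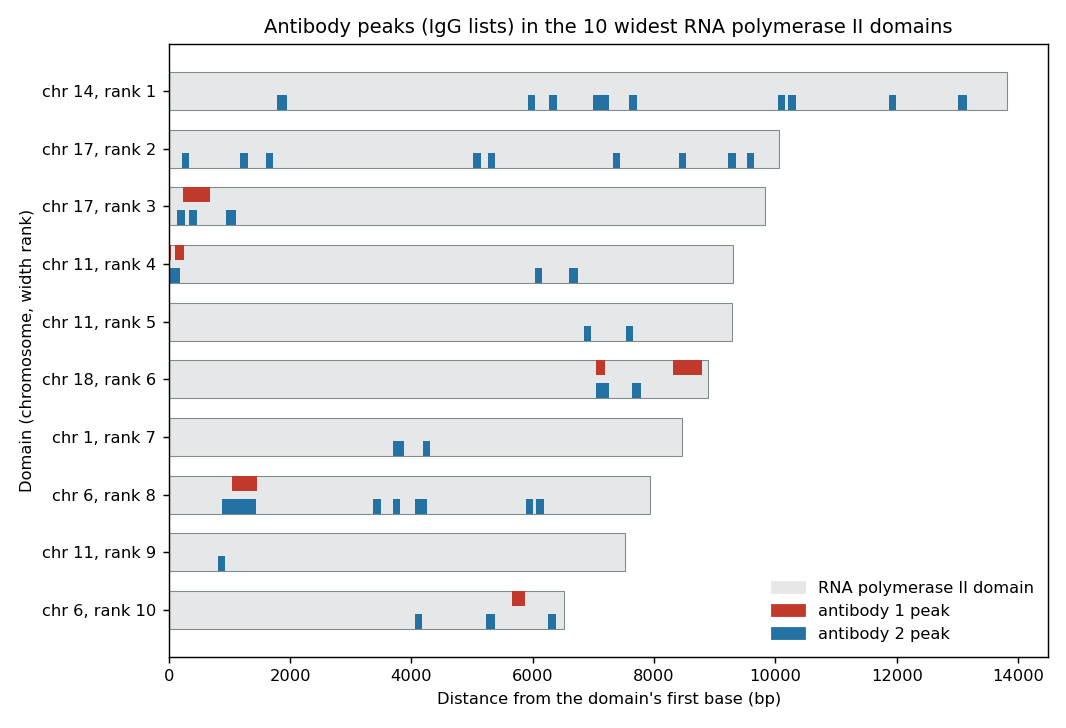
Positions of antibody 1 (red) and antibody 2 (blue) peaks of the IgG lists along the 10 widest RNA polymerase II domains (grey), in bp from each domain's first base, labelled by chromosome and width rank and clipped at the domain's edges. The 13809 bp domain on chromosome 14 and the 10059 bp domain on chromosome 17 carried 9 antibody 2 peaks each and no antibody 1 peak.

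Domains lay on chromosomes 1 to 22 and X. Chromosomes 6 and 11 had the most, 27 each. On chromosome 6 they were 1.14% of its RNA polymerase II peaks (0.753 to 1.65%) and on chromosome 11 0.885% (0.584 to 1.28%), both intervals lying above the 0.550% of the whole list. Chromosomes 8 and 15 had 3 each, or 0.175% (0.036 to 0.512%) and 0.163% (0.034 to 0.476%), with intervals below that value. Because domains cluster, these intervals are too narrow. On chromosome 6, 20 of the 27 domains lay within 100 kb of another, and on chromosome 11, 19 of 27. As background, chromosome 6 carries the large clusters of histone genes, chromosome 11 the genes of the abundant nuclear noncoding RNAs NEAT1 and MALAT1, and chromosomes 2, 14 and 22 the immunoglobulin loci that B cells express. No domain was matched to these genes here.

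**Figure D2:**
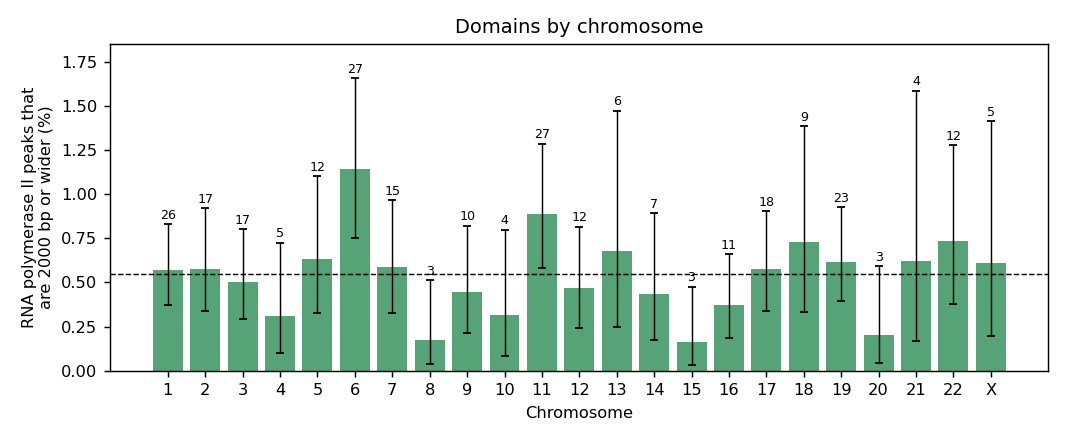
Share of each chromosome's RNA polymerase II peaks that were at least 2000 bp wide, in percent, with exact 95% intervals as whiskers and the number of domains above them. The dashed line marks the 0.550% of the whole list, and the intervals of chromosomes 6 and 11 lie above it.

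Domains were often close to each other. Another domain lay within 1 kb of 12.7% of them (35 of 276), within 10 kb of 31.2% and within 100 kb of 49.6% (43.6 to 55.7%). Joining domains within 100 kb gave 139 that stood alone, 35 pairs, 11 groups of 3 and 7 groups of 4 or more, so that 67 domains lay in 18 groups of at least 3. Domains in groups of 2 or more were somewhat wider, with a median of 2791 bp against 2498 bp for those alone.

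The group with most members had 9 domains on chromosome 6 between 26020511 and 26235359. An antibody 2 peak was found in all 9 of them (17 peaks) and an antibody 1 peak in 8 (11 peaks). The shares over all domains were 75% and 32.2%. Also on chromosome 6, 4 domains between 27776255 and 27865095 held 11 antibody 2 peaks and 1 antibody 1 peak. The 5 domains on chromosome 22 between 23221403 and 23287132 held 8 antibody 2 peaks in 4 of the domains and no antibody 1 peak.

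Chromosome 11 had 3 groups of 4. Those between 64615644 and 64646860 held 3 antibody 1 and 7 antibody 2 peaks, and RNA polymerase II peaks of any width covered 74.1% of that span. Those between 65189993 and 65275606 held 2 and 10, and those between 118661012 and 118771997 held 2 and 3. On chromosome 18, 4 domains between 60804843 and 60877650 lay in a block and held 2 antibody 1 peaks and 1 antibody 2 peak.

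Of the 11 groups of 3, those on chromosome 21 between 43214893 and 43257100 had most antibody 1 peaks, 5, beside 5 antibody 2 peaks. The groups on chromosome 17 between 56401840 and 56431443 and on chromosome 19 between 5690000 and 5720905 each held 2 antibody 1 peaks, with 8 and 7 antibody 2 peaks. On chromosome 2 between 89153076 and 89166237 the domains filled 83.9% of the span and held 5 antibody 2 peaks and no antibody 1 peak. On chromosome 11 between 121319110 and 121328820, in a block, they filled 97.8% of it and held 2 peaks of each antibody.

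The other 6 groups of 3 held at most 1 antibody 1 peak each. On chromosome 6 between 36646130 and 36655054 there were 4 antibody 2 peaks, and on chromosome 9 between 37370296 and 37413579 there were 3 beside 1 antibody 1 peak. On chromosome 13 between 92007134 and 92020589, in a block, there were 2 antibody 2 peaks. On chromosome 19 between 50357315 and 50428280 there was 1, and on chromosome 1 between 150533435 and 150552959, also in a block, there was 1 antibody 1 peak. On chromosome 2 between 55020143 and 55178187 the 3 domains held 1 antibody 2 peak, and that span held 151 RNA polymerase II peaks of any width.

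Narrower RNA polymerase II peaks crowded around the domains. These neighbours come from the list that chose the domains and are given as a description. The gap to the next peak had a median of 145.5 bp, and 93.8% of domains (259) had another peak within 1 kb, against 75.9% of RNA polymerase II peaks of 1000 to under 2000 bp and 66.7% of all peaks. Within 10 kb of a domain there was a median of 11 other peaks, against 7 and 4. The smallest gap anywhere in the list was 44 bp, and 97 domains had a neighbour within 100 bp, so some domains ended at a gap far shorter than their own width. Joining RNA polymerase II peaks across gaps of up to 100 bp gave 470 regions of at least 2000 bp, of which 268 contained a domain and 202 did not.

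Only 5 domains had no other RNA polymerase II peak within 10 kb, and each of these held peaks of both antibodies. They lay on chromosome 1 at 212457904 to 212459948, chromosome 5 at 126112123 to 126114562, chromosome 6 at 27857159 to 27865095, chromosome 14 at 65878433 to 65880768 and chromosome X at 40943509 to 40945670. Of all 276 domains, 29.7% held peaks of both antibodies. The set of 5 was singled out after its values were seen, so no link between isolation and antibody peaks is drawn from it.

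An antibody 1 peak overlapped 89 domains by at least 1 bp, or 32.2% (26.8 to 38.1%), against 14.3% of RNA polymerase II peaks of any width. There were 162 antibody 1 peaks in these domains: 41 domains held 1, 35 held 2, 7 held 3 and 6 held 4 or more, up to 6. An antibody 2 peak overlapped 207 domains, or 75% (69.5 to 80.0%), against 25.6% of RNA polymerase II peaks of any width. There were 478 antibody 2 peaks, 132 domains held at least 2 and 32 held at least 4, up to 10. A wider peak has more room for any other peak, so these shares were set beside the next width class. Among the 1806 RNA polymerase II peaks of 1000 to under 2000 bp, 39.6% held an antibody 1 peak and 64.5% an antibody 2 peak. The interval for antibody 1 in the domains overlapped that of the narrower class (37.3 to 41.9%), and against input the shares were 50% and 49.7%, so no difference held across controls. For antibody 2 the share was higher in the domains against IgG, and also against input, at 77.9% and 67.2%. The share in the domains rested largely on narrow peaks: with antibody 2 peaks of 200 bp or wider only, it was 29.0%. That share was not computed for the narrower class, so whether the difference holds for wider antibody 2 peaks is not known.

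Per length, both antibodies were sparser in the domains. Antibody 1 had 0.187 peaks per kb of domain (0.160 to 0.219), against 0.410 (0.384 to 0.436) in RNA polymerase II peaks of 1000 to under 2000 bp. For antibody 2 the density was 0.553 per kb (0.505 to 0.605) against 0.782 (0.747 to 0.819). Antibody 1 peaks covered 5.55% of domain length against 13.5% in the narrower class, and antibody 2 peaks 9.39% against 14.4%. Neither pair of density intervals overlapped. Against input the densities were also lower in the domains, at 0.329 and 0.546 per kb for antibody 1 and 0.686 and 0.853 per kb for antibody 2.

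Within the domains, how density changed with width depended in part on the control. From domains of 2000 to under 2500 bp over those up to 3500 and up to 5000 bp to those of 5000 bp or wider, antibody 1 density was 0.240, 0.200, 0.166 and 0.112 per kb, and the intervals of the first and last class did not overlap. Antibody 2 density was 0.602, 0.553, 0.551 and 0.484 per kb over the same classes, with overlapping intervals. Against input, antibody 1 density was 0.403, 0.302, 0.332 and 0.256 per kb. It was again lowest in the widest class, but the intervals of the first and last class overlapped (0.331 to 0.486 and 0.188 to 0.339). Antibody 2 density against input was 0.654, 0.666, 0.797 and 0.671 per kb, which shows no decline. The share of domains with antibody 2 was 68.9, 73.3, 81.1 and 100% in these classes, and with antibody 1 it was 35.2, 25.6, 29.7 and 44.4%. Over the 276 domains, Spearman's rho between width and the number of antibody 1 peaks was 0.03 (Pearson's r 0.06), and for antibody 2 it was 0.26 (r 0.42). These are descriptions over domains that share libraries and often neighbour each other. Windows of fixed length were also less often occupied in the domains than in RNA polymerase II peaks of 1000 to under 2000 bp: a 500 bp window at the centre held an antibody 1 midpoint in 7.97% of domains against 22.6% of the narrower class, and an antibody 2 midpoint in 25.7% against 36.4%.

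**Figure D3:**
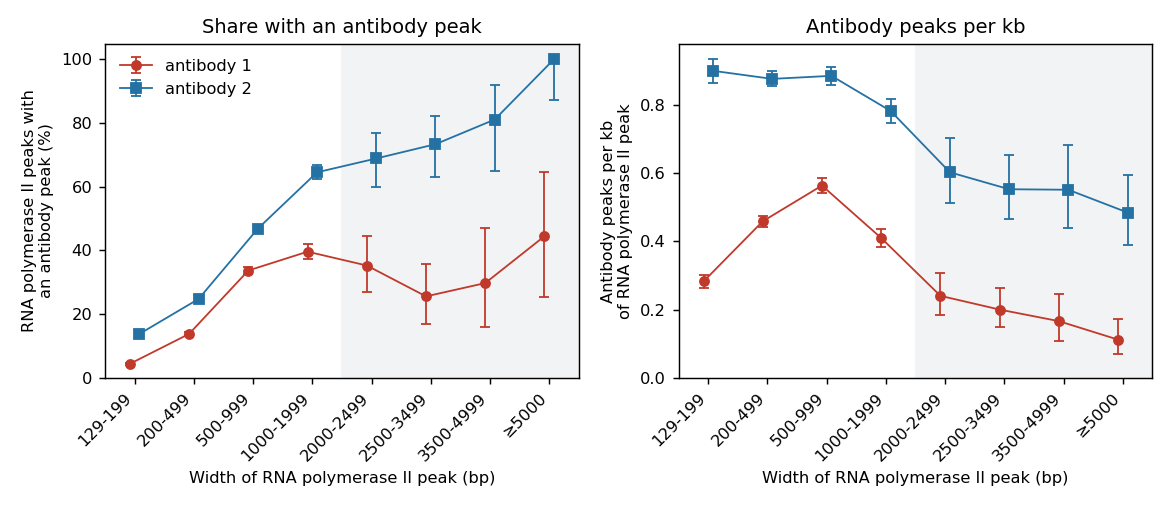
Share of RNA polymerase II peaks with an antibody peak in percent (left) and antibody peaks per kb (right), by width of the RNA polymerase II peak, with exact 95% intervals as whiskers and the domains on grey ground. Against IgG, as plotted, antibody 1 density falls from 0.410 per kb at 1000 to under 2000 bp to 0.112 per kb at 5000 bp or wider, while the share with antibody 2 reaches 100%.

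Both antibodies had a peak in 82 domains, or 29.7% (24.4 to 35.5%), against 9.66% of RNA polymerase II peaks of any width and 33.8% of those of 1000 to under 2000 bp. In 59 of these 82 an antibody 1 peak overlapped an antibody 2 peak directly. Antibody 2 alone was found in 125 domains, antibody 1 alone in 7 and neither in 62. Of the 89 domains with antibody 1, 92.1% also held antibody 2, against 66.8% of the 187 without it. This was not particular to the domains. Of the 715 RNA polymerase II peaks of 1000 to under 2000 bp with antibody 1, 610 also held antibody 2, against 64.5% of that whole class. Over all widths it was 4845 of 7156, against 25.6% of all RNA polymerase II peaks. The 2 antibody lists share the IgG control with each other and with RNA polymerase II, and the part of that control in these overlaps was not tested. Domains with neither antibody were at most 4974 bp wide, and 39 of them had no peak in the antibody lists called against input either.

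The domains with most antibody 1 peaks were of moderate width. On chromosome 13 at 50698769 to 50701799 (3031 bp), 6 antibody 1 peaks covered 81.0% of the domain, which also held 6 antibody 2 peaks. Against input the same domain held 2 wider antibody 1 peaks that covered 94.9% of it, so the number of peaks depends on where the caller divides the signal. On chromosome 19 at 46271941 to 46274962 (3022 bp) there were 6 antibody 1 and 3 antibody 2 peaks. Next came 5 antibody 1 peaks in each of the domains on chromosome 21 at 43252384 to 43257100 (4717 bp) and chromosome 2 at 43451245 to 43455251 (4007 bp), and there were 4 on chromosome 1 at 92948178 to 92952021 (3844 bp). None of these was among the 10 widest. The domain on chromosome 2 at 43451245 also had most antibody 2 peaks of all, 10. It was followed by the 2 widest with 9 each. Of the 4 domains with 6, the wider ones lay on chromosome 6 at 27857159 to 27865095 and chromosome 17 at 76120027 to 76126164 (6138 bp, no antibody 1 peak).

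Antibody 1 peaks lay less often in the middle of a domain than in the middle of narrower peaks. Of 161 antibody 1 midpoints inside domains, 44.7% (36.9 to 52.7%) fell in the central 50% of the length, against 58.4% in RNA polymerase II peaks of 1000 to under 2000 bp and 64.1% in those of 500 to under 1000 bp. An even spread would give 50%, which the interval for the domains includes. The value was 56.9% where domains were taken from the input list, so the lower central share did not hold with that control. For antibody 2, 52.1% of 463 midpoints were central, against 54.3 and 53.5% in the narrower classes.

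Of the 27 domains of 5000 bp or wider, 12 held antibody 1. In these 12, the 20 antibody 1 midpoints lay at a median of 1168 bp and at most 2162 bp from the nearer edge, and 7 of them fell in the central 50% of the length. The 36 antibody 2 midpoints in the same 12 domains lay at a median of 1489 bp and at most 3780 bp, and 16 of them were central. The shares were 35% (15.4 to 59.2%) and 44.4% (27.9 to 61.9%), with intervals that overlapped widely. A 500 bp window at the centre held an antibody 1 midpoint in none of the 27 domains (interval up to 12.8%). In all domains, antibody 1 density was 0.214 per kb (0.163 to 0.276) at 500 to 1000 bp from the edge and 0.138 per kb (0.10 to 0.186) farther in. These intervals overlapped, and the inner stretch comes mostly from wider domains, in which antibody 1 was sparser.

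Outside the domains antibody 1 density dropped at the edge. In the first 250 bp beyond it was 0.029 per kb (0.008 to 0.074), then 0.062 per kb at 500 to 1000 bp and 0.020 per kb at 20 to 50 kb. Antibody 2 fell from 0.616 per kb in the outermost 250 bp inside to 0.246 per kb in the first 250 bp outside, and it was 0.244 per kb at 20 to 50 kb. The drop was not particular to the domains. Across the edges of RNA polymerase II peaks of 1000 to under 2000 bp, antibody 1 fell from 0.296 to 0.061 per kb and antibody 2 from 0.667 to 0.365 per kb. Of the 187 domains without antibody 1, 10 (5.35%) had an antibody 1 peak within 1 kb and 78 (41.7%) within 10 kb, with a median gap of 15002 bp. Among RNA polymerase II peaks of 1000 to under 2000 bp without antibody 1, the values were near these, at 7.42%, 36.8% and 17095 bp. The 69 domains without antibody 2 had a median gap of 1009 bp to the next antibody 2 peak. That gap was not computed for the narrower class.

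**Figure D4:**
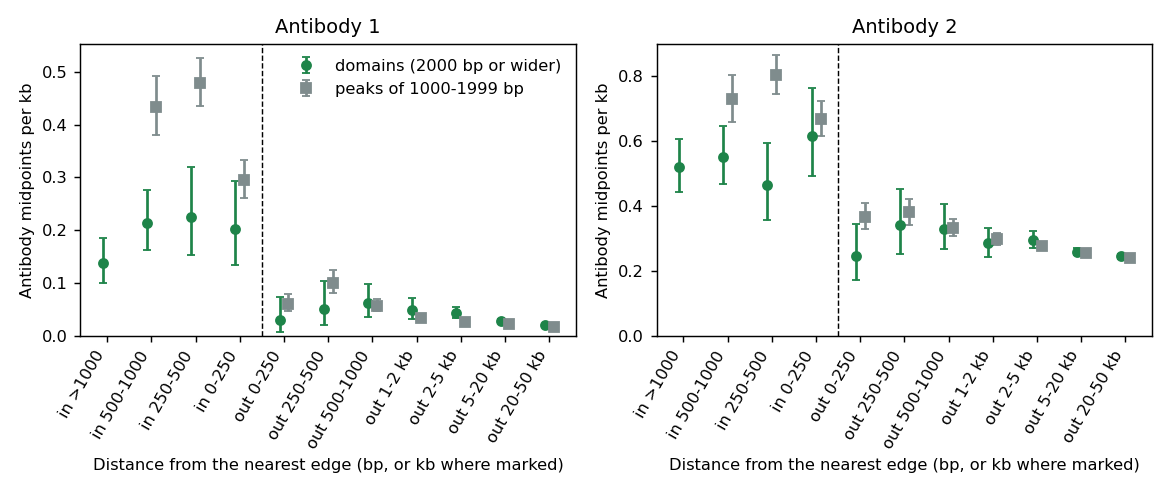
Midpoints of antibody 1 (left) and antibody 2 (right) peaks per kb by distance from the nearest edge, inside and outside (dashed line: edge), for domains (green) and RNA polymerase II peaks of 1000 to under 2000 bp (grey), with exact 95% intervals. Antibody 1 falls from 0.203 per kb just inside the domains to 0.029 per kb just outside, and antibody 2 from 0.616 to 0.246 per kb.

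Where a domain held 2 or more peaks of an antibody, antibody 1 peaks were closer together. The gap between neighbouring antibody 1 peaks had a median of 211 bp (73 gaps in 48 domains), and between antibody 2 peaks 451 bp (271 gaps in 132 domains). All peaks lay on 1 side of the domain's midpoint in 23 of the 48 domains for antibody 1 and in 30 of the 132 for antibody 2, which often had more peaks per domain.

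The antibody peaks inside domains differed from their lists. Antibody 1 peaks there had a median width of 212.5 bp against 184 bp in the whole list, and 94.4% of them were also found against input, compared with 81.3% of the list. For antibody 2, 88.7% of the peaks in domains were found against input, compared with 93.2% of the list. Of the antibody 2 peaks in domains, 60.7% had the list's minimum width of 123 bp, against 78.4% of the list, and 22.8% overlapped an antibody 1 peak, against 1.59%. The share found against input was not computed for antibody peaks in narrower RNA polymerase II peaks. The differences in width and overlap were not particular to the domains. In RNA polymerase II peaks of 1000 to under 2000 bp, antibody 1 peaks had a median width of 259.5 bp, 51.2% of antibody 2 peaks had the minimum width and 38.8% overlapped an antibody 1 peak.

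Per kb, antibody peaks were fewer in grouped domains than in those alone. Antibody 2 had a peak in 67.9% of grouped domains (59.4 to 75.6%) and in 82.0% of those alone (74.6 to 88.0%), at 0.467 (0.407 to 0.533) and 0.655 (0.578 to 0.740) peaks per kb. Antibody 1 had a peak in 27.7% (20.4 to 36%) and 36.7% (28.7 to 45.3%), at 0.145 (0.113 to 0.184) and 0.238 (0.192 to 0.291) peaks per kb. The density intervals did not overlap for either antibody, while the intervals of the shares did for both. In groups of 3 or more, antibody 1 had a peak in 32.8% of domains (21.8 to 45.4%), close to the 32.2% of all domains. Grouped domains were also wider, and some groups lay in blocks. In blocks, antibody 2 had a peak in 41.9% of domains, against 79.2% outside them. The parts of width and blocks in the difference between grouped and lone domains were not tested.

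Called against input, antibody 1 had a peak in 138 domains, or 50% (43.9 to 56.1%), against 19.8% of RNA polymerase II peaks of any width. Of these, 86 had one against both controls and 52 against input only, and 3 domains had one against IgG only. Antibody 2 had a peak against input in 215 domains, or 77.9%, against 26.9% of RNA polymerase II peaks, with 193 shared by both controls. Blocks, the 1-Mb bins defined above, held 31 domains. Since blocks are defined by many antibody 1 peaks against input and few against IgG, a higher antibody 1 share against input is built into them. There it went from 22.6% against IgG to 80.6% against input, and with antibody 2 from 41.9 to 83.9%. In the 245 domains outside blocks it went from 33.5 to 46.1% and from 79.2 to 77.1%.

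All 276 domains met a peak of the RNA polymerase II list called against input (98.7 to 100%), against 89.4% of RNA polymerase II peaks of any width. Full recall was not particular to the domains. All 1806 RNA polymerase II peaks of 1000 to under 2000 bp met one too, with 97.2% of their length covered. Both lists come from the same ChIP reads, so this shows what the control changes and is no replicate. Input-list peaks covered 98.9% of domain length, 160 domains were covered wholly and 8 under 90%. A single input-list peak covered at least 50% of the domain in 271 cases, and in 246 (89.1%) the domain met an input-list peak that was itself 2000 bp or wider.

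Edges shifted with the control in some domains. Both edges lay within 100 bp of the input-list edges in 159 domains (57.6%). An edge reached more than 1 kb farther out against input in 28 of 62 edges in blocks and in 25 of 490 outside them. More than 1 input-list peak met 46 domains, or 16.7% (12.5 to 21.6%), none of them among the 27 domains of 5000 bp or wider (interval up to 12.8%). The share was 2.27% of RNA polymerase II peaks of any width. It was 12.9% (11.4 to 14.5%) of those of 1000 to under 2000 bp, an interval that overlapped that of the domains. Conversely, 8 input-list peaks joined 2 domains each. The widest of these lay on chromosome 18 at 60817128 to 60831833 (14706 bp, in a block). The list against input held 756 peaks of 2000 bp or wider, 393 of them in blocks. Of the 756, 517 met no domain: 200 met no IgG-list peak at all and 183 met one of 1000 bp or wider.

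The 5 domains with the lowest covered share were broken into several pieces against input. They held no antibody 1 peak, as did 187 of all 276 domains. The lowest, on chromosome 2 at 55175410 to 55178187 (2778 bp), was covered to 75.3% by 5 input-list peaks. The others lay on chromosome 2 at 201988448 to 201990716 (77.1%) and at 55081930 to 55085077 (87.4%), on chromosome 10 at 74032461 to 74034891 (78.0%) and on chromosome 14 at 64700891 to 64703407 (83.1%). Those at 55175410, 201988448 and 74032461 held 1 antibody 2 peak each against IgG, and none of the 5 held one against input. At the other end, the 13809 bp domain on chromosome 14 met a single input-list peak of 13812 bp, and the 10059 bp domain on chromosome 17 met one of 10163 bp.

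**Figure D5:**
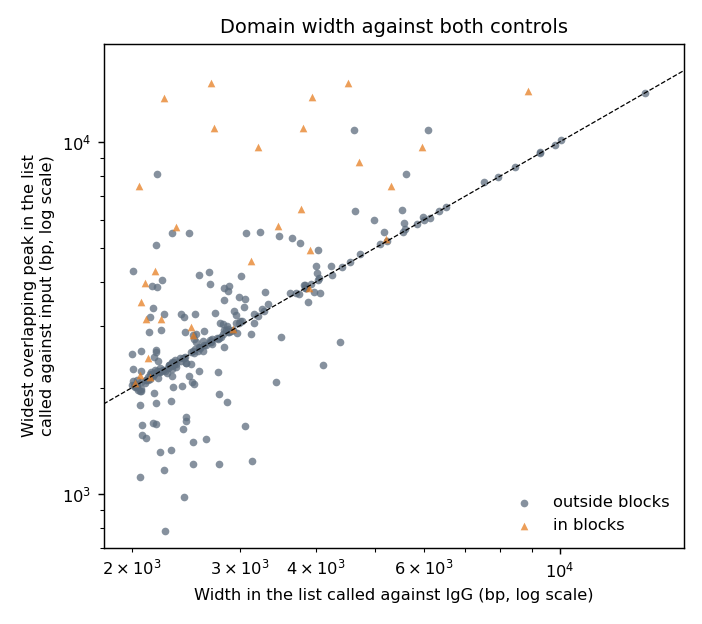
Width of each domain in the list called against IgG and of the widest input-list peak it met, both in bp on log scales, with domains in blocks as orange triangles and the others as grey circles; the dashed line marks equal width. Most domains outside blocks lie near the line, up to the pair of 13809 and 13812 bp, and domains in blocks often lie above it.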

How the data were processed

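The lists were deposited as BED files of 3 columns, giving chromosome, start and end of each peak, with no score or p-value. MACS2 2.0.9, Bowtie 0.12.7, SAMtools and hg19 are named, without settings or order, per the submitters' processing notes. The names of the deposited files give the control and a q-value of 0.1. Other positions (starts, ends) are the authors' own, as deposited, and are printed counted from 1.

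Overlap was at least 1 bp, and a domain was said to hold every antibody peak that overlapped it, also where part of the peak lay outside. Shares have exact Clopper-Pearson intervals and densities exact Poisson intervals, at 95%. With 1 library per antibody there was no test. A block was a 1-Mb bin whose antibody 1 list called against input had 50 peaks or more and no fewer than 5 times the IgG list's number plus 1. Named regions were the 10 widest domains, the 5 with most peaks of each antibody (ties by width), the 3 on each side of the limit, the 5 least covered in the input list and groups of 3 or more within 100 kb. Domains missing from the input list would also have been named, but there were none. The members, lists and settings were chosen with earlier results of these data known. Genes and sequences were not used, because no hg19 annotation was used here. Alternatives changed the width limit, the lists, the overlap, the distance and the regions used. Python 3.11.15 with SciPy 1.17.1, pandas 2.3.3 and NumPy 2.4.6 gave the overlaps, which were drawn with matplotlib 3.10.9, and tested on simulated data and against bedtools 2.31.1.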

Additional observations from a re-analysis of the deposited data

How the results depend on the processing

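Of 102 alternative values, 69 stayed within the interval or tolerance of their main value and 33 moved; beyond what each setting changes by construction, the cause was not tested. At 1500 bp or wider, antibody 2 was found in 66.3% of domains, antibody 1 density was 0.246 per kb and 56.7% had another domain within 100 kb; at 3000 bp or wider these were 82.6%, 0.157 per kb and 41.9%. With antibody lists called against input, antibody 1 was found in 50% and both antibodies in 46.4% of domains, at 0.329 and 0.686 peaks per kb for antibodies 1 and 2, and outside blocks in 46.1% and 43.3%, at 0.290 and 0.623. With antibody peaks of 200 bp or wider only, the shares were 22.5, 29.0 and 13.4% for antibody 1, antibody 2 and both, the densities 0.103 and 0.119 per kb, and 61.9% of antibody 2 midpoints were central. With the 756 domains of the input list they were 22.5, 53.0 and 19.0%, 0.119 and 0.346 per kb, 56.9% of antibody 1 midpoints were central and 73.0% of domains had another within 100 kb. Outside blocks, where the input list had 363 such domains, these came back to 33.6, 75.2 and 30.9%, 0.188 and 0.578 per kb and 49.3%, while 56.5% of antibody 1 midpoints were central. Joining peaks across gaps of up to 100 bp gave 470 domains. Asking for 1 input-list peak over 50% of the domain gave a recall of 98.2%, and asking for one of 2000 bp or wider 89.1%. Within 10 kb, 31.2% of domains had another. Restricting to chromosomes 1 to 22 and X changed nothing, because the list holds no others. Its 11 values could not move and count among the 69 that stayed, so that tally overstates stability. The input-list domains outside blocks, the antibody lists against input outside blocks and the joined peaks were added after seeing the data. No paired analysis was possible because each group has 1 library. Depth is unknown, so what it limits could not be stated.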
